A study of Mus musculus with 2 samples.

Results

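Tumor_7 is a cluster of hepatoma cells, taken here as every cell that the authors' deposited annotation gives that name. It held 502 of 11247 cells, of which 283 came from the IgG library and 219 from the antibody library. The annotation names 30 clusters, of which 11 are tumour clusters, and the other 10 tumour clusters held 7075 cells. The tumours were percutaneous grafts of Hep1-6, a mouse hepatoma cell line, in wild type C57BL/6 male mice 6 to 8 weeks old, kept specific pathogen free on a normal diet. The IgG group received intraperitoneal IgG and the antibody group received an intraperitoneal antibody against SIGLEC15, a sialic acid-binding receptor studied as an immune checkpoint. The design gives 3 mice per group, but each group is 1 library, and whether its cells came from all 3 mice is not stated. Cells enriched with CD45 beads and unsorted cells were loaded in equal parts, so shares of all cells also follow the loading. All grafts came from this 1 established line.

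With 1 library a group no difference has a replicate check, and no test was made. All intervals are 95% intervals and cover counting error only. Levels are CPM, the unique molecular identifiers (UMIs) of a gene scaled to 1000000 UMIs in the cells summed. How the authors clustered the cells is not given in the sources used here, and the same transcripts are taken to have made the clusters, so the levels of Tumor_7 beside the other tumour clusters describe what the cluster is and test nothing. All genes were compared in the antibody library, and 105 genes in both libraries. In the antibody library Tumor_7 held 4885856 UMIs, with a median of 23388 per cell, and the other tumour cells held 57636161 UMIs. Median depth in the other tumour clusters ran from 2483 UMIs in Tumor_4 to 24288 in Tumor_11, so the levels of Tumor_4 rest on far fewer UMIs per cell. The median mitochondrial share in Tumor_7 was 5.36%. The libraries shared 11 cell barcodes, of which 0 were in Tumor_7, and 0 of its 219 antibody cells were predicted to be doublets.

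The cells carried the transcripts of a hepatoma. All 10 hepatoma markers were detected, with the oncofetal protein Afp at 3003 CPM and albumin (Alb) at 2786 CPM. The summed hepatoma marker level was 18265 CPM, inside the range of 15489 to 46665 CPM in the other tumour clusters. Markers of all immune cells (Ptprc, Laptm5, Coro1a and Tyrobp) summed to 8.19 CPM, against 10111 CPM in the cluster MDSC_1. The 4 NK cell and the 4 B cell markers were at 0. T cell markers summed to 3.48 CPM, with Cd3d, Cd3g and Cd4 at 0 and the other 4 detected, Trbc2 the most with 11 UMIs. Macrophage markers summed to 14.5 CPM and neutrophil markers to 9.21 CPM. Fibroblast markers summed to 41.8 CPM, within the 11.4 to 75.02 CPM of the other tumour clusters. Lum was at 0 and the other 5 were detected, Dcn the most at 31.9 CPM.

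A dividing cell copies its genome once in S phase. The origin recognition complex and the licensing factors Cdc6 and Cdt1 load the MCM helicase onto DNA in G1, cyclin-dependent kinases fire the origins, and polymerases, the sliding clamp and ligases build the new strands. E2F transcription factors raise many of these genes at the start of S phase, while genes of mitosis, often under CHR and CCAAT elements in their promoters, peak later in G2. Histone proteins are made in bulk during S phase to package the new DNA, and most of their mRNAs end in a stem-loop without a poly-A tail, which the poly-A capture used here reads poorly.

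Short stretches of promoter are shown for genes of both groups, since the elements named above are read from such letters. The windows were chosen after the gene values were seen, from members of the helicase, the licensing and the nucleotide genes, and from genes of mitosis for contrast. Each is RefSeq sequence of build GRCm38.p6 in the direction of the gene, with the matched letters in capitals. The first 6 windows hold E2F letters (TTCCCGC or TTGGCGC or TTCGCGC or TTGCCGC, searched on both strands). The longer capitals in Mcm5 and Mcm6 are an overlap of TTGGCGC with TTCGCGC. The Mcm5 window is chr8:75109347-75109376 on the plus strand and its match lies 152 to 143 bases before the start of the gene. The Mcm6 window is chr1:128359795-128359824 on the minus strand, with its match 109 to 100 bases before the start. The windows of Mcm7 (chr5:138171362-138171390, minus), Rrm1 (chr7:102441617-102441645, plus), Cdc6 (chr11:98908002-98908030, plus) and Dtl (chr1:191575545-191575562, minus) hold 1 match each.
Mcm5: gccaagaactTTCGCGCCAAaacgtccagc
Mcm6: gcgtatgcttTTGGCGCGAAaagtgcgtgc
Mcm7: gcgctagcgaaTTCCCGCgtccactggag
Rrm1: aggagaactcgTTCCCGCcaggtccgctt
Cdc6: gccggtggagaGCGGGAAatcgcctgggg
Dtl: gtgacgtcagtTTGGCGC
The next 3 windows come from genes of mitosis and hold CHR letters (TTTGAA or TTCGAA, searched on both strands). They lie upstream of Top2a at chr11:99024351-99024380, Cdk1 at chr10:69352966-69352995 and Ccnb2 at chr9:70421704-70421733, all on the minus strand.
Top2a: ctattggtccatTTTGAAgattctcccgcc
Cdk1: ctgattggctccTTTGAAcgtctacgtgca
Ccnb2: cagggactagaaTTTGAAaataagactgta

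RefSeq promoters, 250 bases before to 50 bases after the start, were found for 4275 of the 5356 genes compared. E2F letters stood in 22.01% of these 4275 genes (941). They stood in 13 of 20 genes of the replication list (65%), in 4 of 5 MCM genes with a promoter, and in 5 of 22 genes of the mitosis list (22.7%). CHR letters stood in 16.7% of all genes, in 3 of 20 replication genes (15%) and in 16 of 22 mitosis genes (72.7%). The CCAAT box stood in 42.8% of all genes, in 55% of the replication genes and in 86.4% of the mitosis genes. Among the genes that stood at least 1.5-fold above every other tumour cluster in Tumor_7, 58 of 99 with a promoter held E2F letters (58.6%), and 21 held CHR letters (21.2%). A match of letters is a description of the sequence and not a bound site. Pcna, Ccne1, Fbxo5 and Mcm2 had none of the E2F letters in this window.

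Against the pooled other tumour clusters, Tumor_7 was set apart by the genes that copy DNA. All 25 genes of the replication list that could be compared were at least 1.5-fold higher, with a median log2 ratio of 2.15, against 0.09 over all genes. Of the 25, 7 were so low in the others that they could pass the filter given next only by being higher in Tumor_7. Of the 15 with at least 20 CPM in the others, 15 were higher, beside 352 of all 4855 such genes. Over all 5356 genes with at least 20 CPM in the higher group, 625 were at least 1.5-fold higher (11.7%) and 341 at least 1.5-fold lower (6.37%). All 25 replication genes were also higher in Tumor_7 than in each of the other 10 tumour clusters, a position that 879 of all genes held (16.4%). Their summed level was 2847 CPM, against 299 CPM in Tumor_1, the lowest of the others, and 1355 CPM in Tumor_4, the highest.

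**Figure D1:**
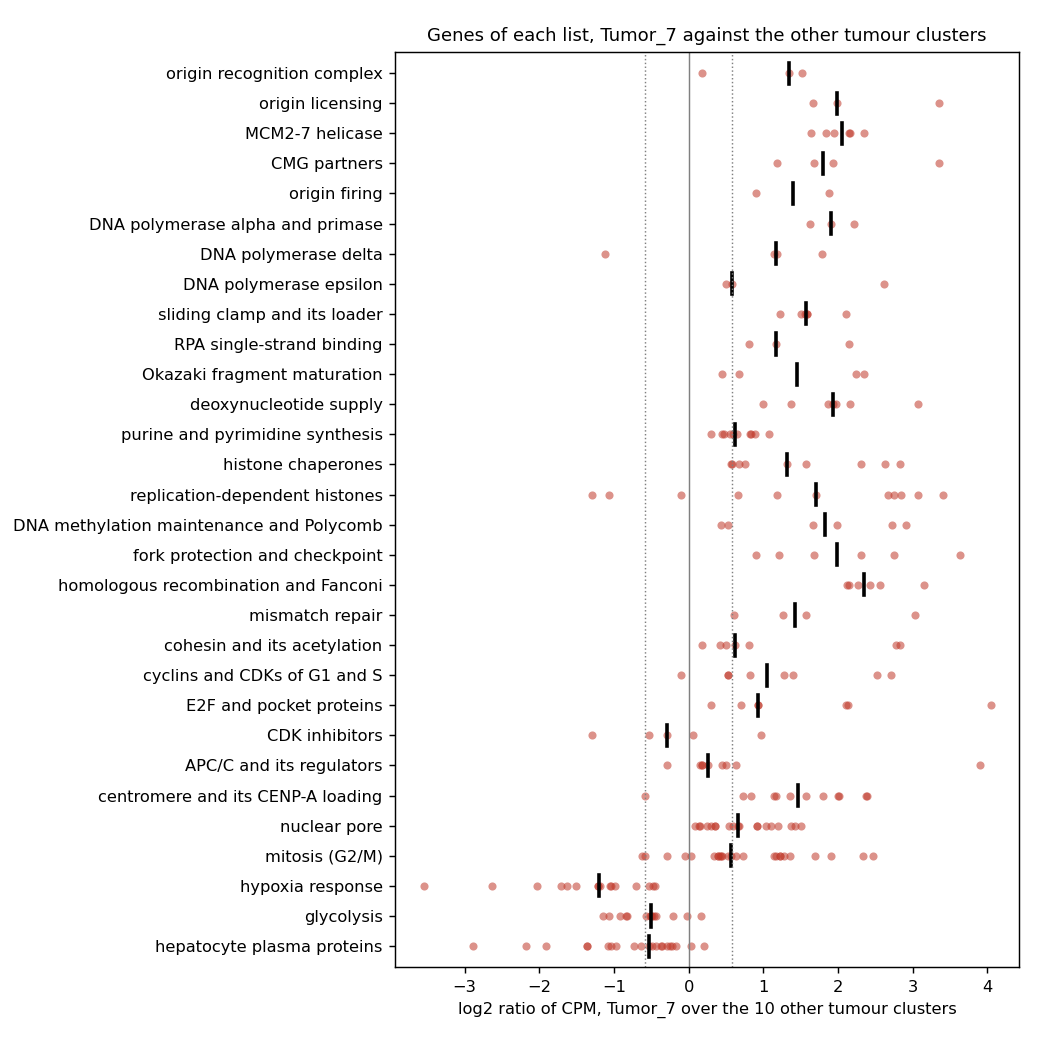
Log2 ratio of Tumor_7 to the pooled other tumour clusters (horizontal axis) for the genes compared in each gene list (rows), antibody library; each point is a gene, black bars are list medians and dotted lines mark 1.5-fold. The MCM2-7 helicase lies to the right with a median of 2.05 and the hypoxia list lies to the left with a median of -1.20.

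In Tumor_7, 125 genes stood at least 1.5-fold above the next highest tumour cluster (2.33% of those compared). The same count was 208 in Tumor_11, 97 in Tumor_1, 64 in Tumor_9, 43 in Tumor_2 and 0 in Tumor_5. The widest gap belonged to Slfn9, a member of the schlafen family. Slfn9 was at 133 CPM (123 to 144) in Tumor_7. In the others its lowest level was 1.21, its median 11.3 and its highest 28.3 CPM, the last in Tumor_4, a gap of 4.71-fold. Clspn, the adaptor that lets ATR activate the checkpoint kinase Chk1 at stalled forks, stood 4.09-fold above the next cluster. Dtl, the substrate receptor of the ubiquitin ligase that destroys Cdt1 in S phase, stood 3.97-fold above the next. The schlafen genes are close relatives, and how reads shared between them were counted is not given in the sources used here.

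Transcripts of the factors that load origins were high. Cdc6, the ATPase that brings the helicase to the origin, was at 45.03 CPM against 4.41 CPM in the pooled others, 10.2-fold higher. The lowest other cluster had 1.16 CPM, the median 3.81 and the highest 14.1 CPM, so no other cluster reached the level of Tumor_7. Cdt1, its partner, was at 63.2 against 20.04 CPM. Gmnn, which binds Cdt1 and blocks loading a second time in the same cycle, was at 170.1 against 42.8 CPM. Of the origin recognition subunits, Orc6 (121 against 42.1 CPM) and Orc2 (41.8 against 16.4 CPM) were past 1.5-fold. Orc4 was not, at 27.4 against 24.3 CPM, and Orc1, Orc3 and Orc5 were below the 20 CPM filter.

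All 6 subunits of the MCM2-7 helicase, the ring that unwinds DNA, were at least 1.5-fold higher. Their median log2 ratio was 2.05, and they summed to 903 CPM against 77.4 CPM in Tumor_1 and 403 CPM in Tumor_4. Mcm5 was at 108 CPM, 5.12-fold above the pooled others, whose clusters ran from 2.85 CPM in Tumor_1 over a median of 21.6 CPM to 53.004 CPM in Tumor_4. Mcm7 was at 294 CPM, 3.87-fold above the pooled others, and the nearest cluster was Tumor_2 with 147 CPM. Mcm6 had the lowest ratio of the ring, 3.13-fold, at 195 CPM. Of 6 partners that turn the ring into a running helicase, 4 passed the filter, 3 of them only through their level in Tumor_7. Mcm10, 1 of these 3 and needed to start the helicase, was at 27.2 against 2.65 CPM. Among the kinases and adaptors of origin firing, 2 of 7 genes passed the filter, both only through Tumor_7. The adaptor Topbp1 was at 62.2 against 16.8 CPM. Dbf4, the activator of the Cdc7 kinase, was at 36.8 CPM, above the pooled others (19.7 CPM) but below Tumor_2 (52.3 CPM).

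**Figure D2:**
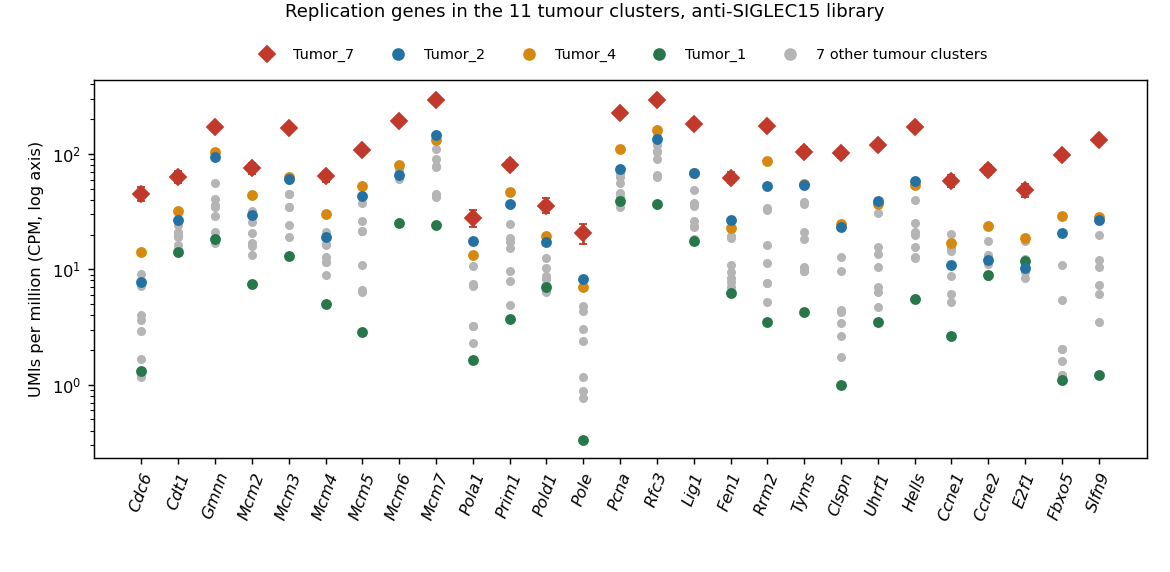
CPM (vertical log axis) of 27 genes, 26 of replication and its control and Slfn9, in each of the 11 tumour clusters of the antibody library; red diamonds are Tumor_7 with 95% Poisson bars, and Tumor_2, Tumor_4 and Tumor_1 are coloured. The red diamond is the highest point for each of the 27 genes, as for Pcna at 227 CPM with the next cluster at 111 CPM.

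Many genes of the enzymes that lay down new strands were higher, but several passed the filter only through Tumor_7. This held for all 3 genes compared of polymerase alpha and primase, 2 of 4 of polymerase delta and 1 of 3 of polymerase epsilon. Of the 2 polymerase delta genes with at least 20 CPM in the others, 1 was higher and 1 lower. Of 2 such polymerase epsilon genes, 0 were higher. The primase subunit Prim1, which makes the RNA primers, was at 79.6 against 17.1 CPM. Pola1 and Pola2 of polymerase alpha were 3.76-fold and 3.07-fold higher. Of polymerase delta, which copies the lagging strand, Pold1 (35.6 against 10.3 CPM), Pold2 and Pold3 were higher. Its smallest subunit Pold4 was the other way, at 43.4 CPM against 94.2 CPM, 2.17-fold lower, with the other clusters between 41.7 and 164 CPM. Pold4 protein is known to be degraded in S phase, but these values are of its transcript. Of polymerase epsilon, the catalytic subunit Pole was at 20.5 against 3.35 CPM. The small subunits Pole3 and Pole4, which also work in chromatin complexes, were at ratios of 1.41 and 1.49.

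The sliding clamp Pcna, which holds polymerases to DNA, was at 227 CPM (213 to 240) against 52.4 CPM. In the other clusters its lowest level was 34.9, the median 51.1 and the highest 111 CPM, so Tumor_7 stood 2.04-fold above the next. The 5 subunits of the clamp loader, Rfc1 to Rfc5, were between 2.33-fold and 3.00-fold higher. Of the proteins that coat single strands, Rpa2 was 4.43-fold and Rpa1 2.26-fold higher. The flap nuclease Fen1 (62.2 against 13.2 CPM) and the ligase Lig1 (180.3 against 35.3 CPM), which join the fragments of the lagging strand, were 4.71-fold and 5.11-fold higher.

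Of 8 genes of deoxynucleotide supply, 7 passed the filter, 1 of them only through Tumor_7. The 6 with at least 20 CPM in the others were all at least 1.5-fold higher. Rrm2, the subunit of ribonucleotide reductase whose amount limits the reaction, was at 176 CPM (165 to 188) against 20.9 CPM, 8.43-fold higher (7.71 to 9.21). Across the other clusters Rrm2 ran from 3.51 CPM over a median of 13.8 to 87.5 CPM. Rrm1, the other subunit, was at 104.997 CPM and 3.83-fold higher. Thymidylate synthase (Tyms) was 4.47-fold higher and thymidine kinase (Tk1) 3.65-fold. Of 10 genes compared in the general purine and pyrimidine pathway, 6 were past 1.5-fold higher, beside 11.7% of all genes. Their median log2 ratio was 0.62. Against Tumor_2 0 of 10 passed, and against Tumor_9 1 of 10. Cad, the first enzyme of pyrimidine synthesis, was at 24.97 against 11.9 CPM in the pooled others and passed the filter only through Tumor_7.

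Histone transcripts were among the highest ratios, though poly-A capture reads only a part of them. Of 63 genes with names beginning in Hist, 18 passed the filter, 15 were at least 1.5-fold higher and 2 lower, and the median log2 ratio was 2.14. Since 7 of the 18 could pass only by being higher, the 9 with at least 20 CPM in the others are given too. Among these 9, 6 were higher and 2 lower, beside 352 and 341 of all 4855 such genes. The linker histone Hist1h1b was at 390.3 CPM (373 to 408), 10.6-fold above the pooled others, with 8.39 CPM in the lowest, 28.0 in the median and 201 CPM in the highest other cluster. Hist1h2ap was at 513 CPM against 80.5 CPM and Hist1h2ae at 152 against 21.2 CPM. Exceptions ran the other way. Hist1h2bc was at 36.8 CPM, the lowest of the 11 tumour clusters and 2.101-fold below the pooled others. Hist1h2ac was at 16.4 against 40.6 CPM, and the linker histone Hist1h1c was close to the others at 86.4 against 93.1 CPM. Histone genes have near-identical copies, so a value for a single copy is uncertain.

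The proteins that place and mark new histones were high as well. The large subunit of chromatin assembly factor 1, Chaf1a, was at 87.2 against 14.1 CPM, and Chaf1b was at 39.7 against 5.60 CPM. Asf1b, the chaperone tied to dividing cells, was 4.94-fold higher, while its relative Asf1a was 1.69-fold higher. The histone carrier Nasp was at 246 CPM against 98.3 CPM. Slbp, which binds the stem-loop of histone mRNAs, was at 65.5 against 23.2 CPM. Uhrf1, which reads newly copied methylated DNA and recruits the methyltransferase Dnmt1, was at 120.1 CPM, 7.52-fold above the pooled others, with a median of 11.97 CPM over the other clusters. Dnmt1 itself was 3.95-fold higher and the remodeller Hells 6.63-fold. Of the Polycomb complex, Ezh2 was 3.18-fold higher, while Eed and Suz12 were at ratios of 1.34 and 1.44.

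Of 13 genes that guard forks and serve the checkpoint, 6 passed the filter, and 4 of these could pass only by being higher in Tumor_7, so their count says nothing more. Clspn was at 101 CPM (92.4 to 110.4), 12.4-fold above the pooled others (10.9 to 14.1). In the other clusters Clspn ran from 0.987 CPM in Tumor_1 over a median of 4.37 to 24.7 CPM in Tumor_4. Chek1, the kinase that Clspn serves, was at 21.9 against 3.26 CPM, and the fork protection pair Timeless and Tipin were 4.94-fold and 3.20-fold higher. Of 10 genes of homologous recombination, 6 passed the filter, and each of the 6 could pass only by being higher. Brca1 and Brca2, both among them, were 4.82-fold and 4.41-fold higher. In mismatch repair 4 of 6 genes passed the filter, and 3 of the 4 could pass only by being higher. There the nuclease Exo1 was 8.18-fold higher and Msh6 2.98-fold. Esco2, which acetylates cohesin as sister strands are made, was at 59.2 against 8.66 CPM, while the cohesin subunit Rad21 was at 123 against 109 CPM and highest in Tumor_2 at 212 CPM.

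Among 8 cyclins and CDKs of G1 and S compared, 3 could pass the filter only by being higher in Tumor_7. So could 3 of 7 E2F and pocket protein genes. With at least 20 CPM in the others, 2 of 5 and 2 of 3 were higher, beside 352 of all 4855 such genes. Both cyclins E passed only through Tumor_7, as did E2f1 and E2f8. Ccne1 was at 58.3 CPM and Ccne2 at 72.5 CPM, 5.74-fold and 6.55-fold above the pooled others, and both were highest in Tumor_7. Cyclin A (Ccna2) was 2.42-fold above the pooled others, at 55.3 CPM, but Tumor_2 had 81.6 CPM. Cyclin D1 (Ccnd1) was at 355 CPM, with 45.2 CPM in Tumor_1 and 517 CPM in Tumor_8, so that 3 tumour clusters lay above Tumor_7. The activator E2f1 was at 48.5 against 11.3 CPM, with a median of 11.3 CPM over the others, and the repressor E2f8 was at 21.3 against 1.28 CPM. The pocket protein Rbl1 was 4.39-fold higher. The inhibitor Cdkn1a (p21) was lower, at 113 CPM against 276 CPM, while Tumor_2 had 108 CPM and Tumor_1 749 CPM. Cdkn2c was 1.95-fold higher, and Cdkn2a was at 83.5 against 80.5 CPM.

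Of 9 genes of the anaphase-promoting complex and its regulators that were compared, 2 were at least 1.5-fold higher and 0 lower. Since 1 of the 9 could pass only by being higher, the 8 with at least 20 CPM in the others are given too. Of these, 1 was higher, beside 352 of all 4855 such genes. Fbxo5 (Emi1), which inhibits the anaphase-promoting complex in S and G2, was at 97.4 CPM (88.9 to 106.6) against 6.51 CPM, 14.97-fold higher (13.1 to 17.2), the highest ratio of the genes that passed the naming rule. The lowest other cluster had 1.10 CPM, the median 2.04 and the highest 29.2 CPM. Cdc20, which activates the same complex in mitosis, was at 40.5 CPM against 49.7 CPM, short of 1.5-fold, with 188 CPM in Tumor_2. The core subunits were near the others, as with Anapc1 at 37.7 against 34.1 CPM. Dtl, whose promoter letters are printed above, was at 65.5 against 9.96 CPM, and Skp2, the receptor of another ligase, was at 37.3 against 10.3 CPM. Their scaffolds were not high: Cul4a was at 21.7 against 27.2 CPM and Cul1 at 97.8 against 99.2 CPM.

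Genes of mitosis gave a mixed picture. Of 25 genes of the mitosis list, 12 were at least 1.5-fold higher and 2 lower than in the pooled others, with a median log2 ratio of 0.57. That median was 2.06 with each cluster weighted alike and 2.14 without Tumor_2 and Tumor_4, and 0.34 without Tumor_1. Of the 25, 5 passed the filter only through Tumor_7, and 1 could pass only by being higher. Of the 20 with at least 20 CPM in the others, 8 were higher and 2 lower, beside 352 and 341 of all 4855 such genes. The list summed to 2456 CPM in Tumor_7, between 200 CPM in Tumor_1 and 4484 CPM in Tumor_2. Top2a, the topoisomerase that untangles sister strands, was at 476 CPM (457 to 496), the highest of the 11 clusters, followed by 349 CPM in Tumor_2. Cdk1 was at 186 CPM, close to the 176 CPM of Tumor_2, and the kinase Aurkb was at 62.8 CPM with 42.6 CPM in Tumor_2. Cyclin B1 (Ccnb1) was at 40.1 against 138 CPM in Tumor_2, and the kinetochore protein Cenpf at 95.4 against 303 CPM.

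Tumor_2 and Tumor_9 were the clusters most like Tumor_7, with correlations of log2(CPM + 20) across 6262 genes of 0.983 and 0.976. Tumor_1 was the least like it, at 0.869. Such correlations share a library and its abundant genes, and genes are not replicates. Against Tumor_2, 265 of 5370 genes were at least 1.5-fold higher in Tumor_7 (4.93%) and 215 lower (4%). All 25 replication genes were among the higher, with a median log2 ratio of 1.46, and 19 of 26 mitosis genes were among the lower, with none higher and a median of -1.30. A gene could pass the filter here through either cluster alone, which limits these counts. Cdc6 passed only through Tumor_7, at 45.03 CPM with no other tumour cluster above 14.1 CPM, and so did Ung, at 23.7 CPM with none above 9.72 CPM. Histone genes were mostly higher than in Tumor_2, 12 of 19, with 3 lower, under the same limit. Hist1h2ab, at 54.6 against 18.7 CPM, passed only through Tumor_7. The centromere protein Cenpa, the histone variant that marks centromeres and is made late in the cycle, was at 27.0 against 138 CPM. Its loader Hjurp was at 187 against 121 CPM.

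Against Tumor_9, 356 of 5438 genes were at least 1.5-fold higher in Tumor_7 (6.55%) and 271 lower (4.98%). All 25 replication genes were higher, with a median log2 ratio of 1.49, and 11 of 25 mitosis genes were higher. Some replication genes, Cdc6 and Ung among them, again passed the filter only through Tumor_7. The interferon gamma list ran the other way, and 15 of 15 genes were lower in Tumor_7, with a median of -1.73. Only 9 genes of this list passed the filter against the pooled others. So at most 9 of the 15 reached 20 CPM in Tumor_7, and the rest passed only through their level in Tumor_9. The chemokine Cxcl10 was at 126 CPM in Tumor_7 and 472 CPM in Tumor_9, and the GTPase Gbp2 at 96.2 and 415 CPM. Against the pooled others, the same list was not low. Of its 9 genes compared there, 2 were higher and 0 lower, beside 11.7% and 6.37% of all genes. The 2 were Cxcl9 at 92.7 against 36.9 CPM and Cxcl10 at 126 against 69.4 CPM. A single cell held 42.2% of the Cxcl9 UMIs, and without that cell Cxcl9 was at 54.0 CPM, 1.46-fold above the others and under the limit. Of the 11 T cell and NK cell markers, 7 were at 0 in Tumor_7, and the other 4, all of T cells, had 1 to 11 UMIs.

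Genes of the response to low oxygen were lower in Tumor_7 than in the pooled others. Of 16 hypoxia genes compared, 13 were at least 1.5-fold lower and 0 higher, with a median log2 ratio of -1.20. Among all genes compared, 6.37% were lower and 11.7% higher. Of the 16, 4 could pass the filter only by being lower. Lists of stress responses were not low as a whole. In the unfolded protein response 2 of 19 genes were lower and 0 higher, in the ATF4 response 6 of 16 were lower and 4 higher, and of 10 heat shock genes 0 were lower and 1 higher. Ndrg1, a stress-response gene, was at 19.03 CPM against 224 CPM, 11.8-fold lower. Its lowest other cluster was Tumor_3 with 22.5 CPM, the median was 75.04 and the highest was Tumor_1 with 854 CPM. Bnip3, a mitophagy receptor, was at 48.7 CPM, with a median of 92.3 CPM over the others and 968 CPM in Tumor_1. The glucose transporter Slc2a1 was at 39.1 against 128 CPM and the growth factor Vegfa at 47.1 against 146 CPM. The pooled level of these genes came in large part from Tumor_1, where the list summed to 4858 CPM, against 685 CPM in Tumor_7 and 591 CPM in Tumor_4. With each cluster weighted alike the median log2 ratio was -0.36. Against Tumor_2, 2 of 11 hypoxia genes were lower, beside 4% of all genes, and 0 higher. Against Tumor_9 the median was -0.04.

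The other genes with the lowest ratios were mixed in function. The growth factor Areg was at 7.98 CPM against 124 CPM, 15.5-fold lower, with 2.54 CPM in Tumor_3, a median of 27.6 CPM and 371 CPM in Tumor_1. The transcription factor of the stress response Ddit3 was 4.87-fold below the pooled others, at 24.97 CPM. Its median over the other clusters was 42.2 CPM, with 508 CPM in Tumor_1. The haem oxygenase Hmox1 was 4.59-fold below the pooled others, at 14.3 CPM, with a median of 26.5 CPM and 221 CPM in Tumor_10. Angptl8, a hepatocyte hormone of lipid use, was at 17.6 against 98.5 CPM, and its highest level was 311 CPM in Tumor_6. Across 21 plasma protein genes, 10 were lower and 0 higher, with a median log2 ratio of -0.53, and 3 of the 21 could pass only by being lower. The summed level was 14916 CPM against 21185 CPM in the pooled others, with 12387 CPM in Tumor_4, the lowest, and 50863 CPM in Tumor_11, the highest. Against Tumor_2, 6 of 19 plasma protein genes were lower, and against Tumor_9, 0 of 18 were lower and 2 higher. The shares of all genes that were lower were 6.37% against the pooled others and 4% against Tumor_2. Against Tumor_9, 6.55% of all genes were higher. Glycolysis genes were lower in 5 of 14, as with Pgk1 at 301 against 665 CPM, and in 0 of 13 against Tumor_2.

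Of 9 Wnt target genes, 3 were at least 1.5-fold higher than in the pooled others and 0 lower, and 2 of 9 were higher against each of Tumor_2 and Tumor_9. The shares of all genes that were higher were 11.7% against the pooled others, 4.93% against Tumor_2 and 6.55% against Tumor_9. Nkd1, a feedback inhibitor of Wnt signalling, was at 149 against 71.0 CPM, and Tumor_3 had 151 CPM. Notum, a secreted Wnt inhibitor, was at 55.1 CPM, and Tumor_3 had 87.1 CPM. Of 18 ribosome biogenesis genes, 5 were higher, and of 19 nuclear pore genes, 11 were, with median log2 ratios of 0.54 and 0.67. Against Tumor_2 these counts were 0 of 18 and 3 of 21, and against Tumor_9 0 of 18 and 9 of 19. Of the 19 nuclear pore genes, 10 passed the filter only through Tumor_7, and of the 18 ribosome biogenesis genes 2 did. Among those with at least 20 CPM in the others, 3 of 9 nuclear pore and 4 of 16 ribosome biogenesis genes were higher. The same held for 352 of all 4855 such genes. Nup85 was at 42.4 against 14.97 CPM and Nup155 at 53.2 against 23.3 CPM.

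The same genes were then followed from cell to cell in the antibody library. Per cell, the replication list had a median of 2836 CPM in Tumor_7, from 1216 in the lowest cell to 5655 in the highest. The median was 997 CPM in the 500 cells of Tumor_2 and 524 CPM in the 2994 other tumour cells. All 219 cells lay above both of these medians, and 216 (98.6%) lay above the 90th percentile of the other tumour cells. The mitosis list was less uniform, with 428 CPM in the lowest, 2281 in the median and 7043 CPM in the highest cell. All 219 cells lay above the median of the other tumour cells, 348 CPM, and 15 (6.85%) above their 90th percentile. Tumor_2 had the highest mitosis sum of the tumour clusters, and 41 of 219 cells (18.7%) were above its median, 3671 CPM. With that median and the 90th percentile for replication as limits, 177 cells of Tumor_7 were high for replication alone, 39 for both, 2 for mitosis alone and 1 for neither. In Tumor_2 the numbers were 37, 56, 194 and 213.

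**Figure D3:**
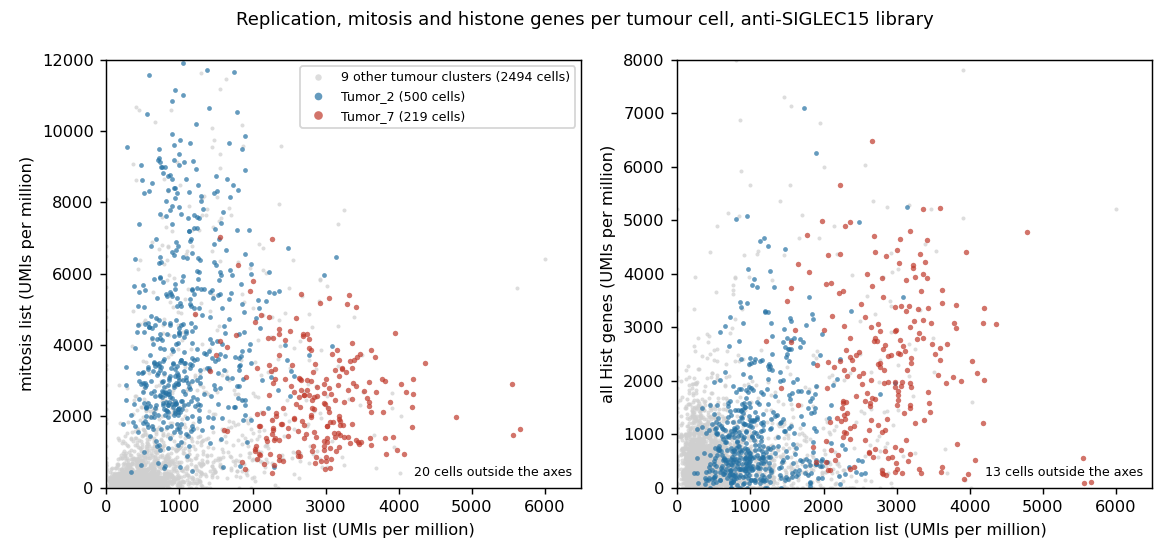
Summed CPM per cell of the replication list (horizontal axis) against the mitosis list and against the Hist genes (vertical axes), antibody library; 219 cells of Tumor_7 in red, 500 of Tumor_2 in blue and 2494 of the other 9 tumour clusters in grey. Cells of Tumor_7 lie to the right, around a replication level of 2836 CPM, and spread from low to high on both vertical axes; a few cells lie outside the axes.

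Within Tumor_7, the histone and the mitosis lists moved together and the replication list did not move with either. Over the 219 cells, Pearson's r was 0.60 between the mitosis and the Hist sums, -0.12 between replication and mitosis and -0.04 between replication and Hist sums. The cells share a library, and each sum is a share of the UMIs of the same cell. For single genes, the variance over the mean of the UMI counts was 8.74 for Hist1h1b and 5.03 for Top2a. From the spread in depth alone these would be 1.80 and 1.97. For the replication genes Mcm3 and Clspn the values were 1.47 and 1.47, beside 1.34 and 1.21 from depth alone. Rrm2 had 2.19 beside 1.36, Hells 1.85 beside 1.35 and Fbxo5 1.85 beside 1.20. The mean UMIs per cell were 8.71 for Hist1h1b and 10.6 for Top2a. They were 3.74 for Mcm3, 2.26 for Clspn, 3.93 for Rrm2, 3.84 for Hells and 2.17 for Fbxo5. This measure also rises with the mean, so it does not compare the spread of genes at unlike levels.

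The 219 cells were ordered by their summed Hist level and cut into 3 groups of 73, a grouping chosen after the values were seen. The groups had median depths of 23574, 23344 and 23588 UMIs. The replication list was nearly flat, at 2766, 2829 and 2943 CPM from the lowest to the highest histone group, while the mitosis list was at 1470, 2541 and 3321 CPM. Between the highest and the lowest group, 115 of 2760 genes were at least 1.5-fold higher (4.17%) and 30 lower (1.09%). Nusap1, a spindle protein, was at 19.5, 66.0 and 117 CPM, and Hmmr at 10.7, 43.6 and 66.8 CPM. Mki67, the proliferation antigen, was at 113, 272 and 400.3 CPM and Top2a at 276, 443 and 703 CPM. Esco2 was at 35.9, 59.4 and 81.4 CPM.

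Within the replication genes the groups differed by gene. Mcm3 was at 168, 161 and 173 CPM, a ratio of 1.03 (0.869 to 1.22) of the highest to the lowest group. Mcm7 was at 288, 287 and 307 CPM. Mcm2 ran the other way, at 94.4, 74.5 and 57.1 CPM, 1.65-fold lower (1.27 to 2.16) in the highest histone group. Msh6 was at 50.4, 34.5 and 26.1 CPM and Dtl at 85.6, 57.5 and 54.1 CPM. Cyclin D1 was at 404, 365 and 299 CPM. Pcna was at 193, 218 and 268 CPM, and Fbxo5 at 68.0, 112 and 111 CPM.

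**Figure D4:**
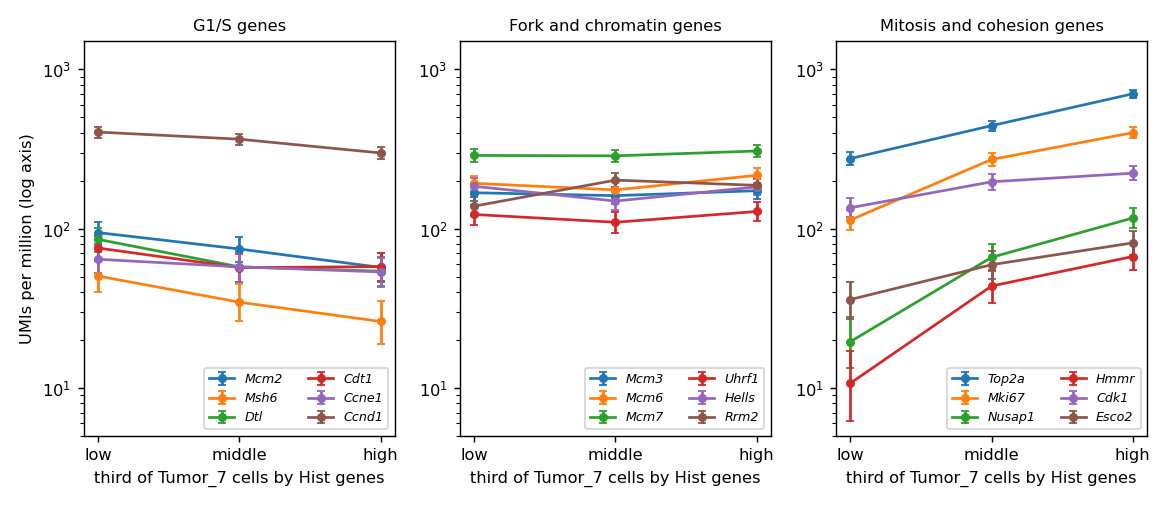
CPM (vertical log axis) of 18 genes in Tumor_7 cells of the antibody library, in 3 groups of 73 cells with low, middle and high summed Hist level; bars are 95% Poisson intervals. Mcm2, Msh6 and Dtl are lower in the high group than in the low group, Mcm3 and Mcm7 are near level, and Top2a goes from 276 to 703 CPM.

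Cells were also counted by whether they held at least 1 UMI of a gene, after each was thinned to 5000 UMIs, which kept 214 of 219 cells of Tumor_7 and 2725 of 2994 other tumour cells. Mcm3 was then found in 56.4% (49.6 to 63.3) of Tumor_7 cells, 25.3% of Tumor_2 cells and 15.5% of other tumour cells. Without thinning these shares were 94.98%, 64.2% and 39.4%. Fbxo5 was in 36.1% (29.6 to 42.8), 7.83% and 2.64% of thinned cells, and in 79.5%, 22.2% and 7.82% of unthinned cells. Pcna was in 66.7%, 29.1% and 21.7% of thinned cells, and unthinned in 97.3%, 70.8% and 55.3%.

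Free RNA in droplets can give a UMI to cells that do not make the transcript. The clusters MDSC_1 to MDSC_4, immune cells with a median depth of 1047 UMIs, were used to read that level at 1000 UMIs per cell. At that depth Mcm3 was in 15.8% of Tumor_7 cells and in 0.165% of the 405 MDSC cells deep enough. Rrm2 was in 16.1% and 1.13%, and Fbxo5 in 9.01% and 0.619%. Pcna was in 20.3% and 4.76%, the highest MDSC share of these genes. The abundant hepatoma markers were higher, with Afp in 88.8% and 31.2% and Alb in 88.5% and 27.2%. Whether MDSC cells make any of these transcripts themselves was not tested.

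Between the libraries, Tumor_7 held 6.48% (5.77 to 7.26) of the 4364 IgG tumour cells and 6.82% (5.97 to 7.74) of the 3213 antibody tumour cells. The ratio of the shares was 1.05 (0.877 to 1.26), an interval that covers the counting of cells in these 2 libraries and not the spread between mice. As a share of all cells, Tumor_7 was at 4.91% and 3.99%, a ratio of 0.814 (0.679 to 0.974), a denominator that includes the bead-enriched cells. Mcm3 of the replication list could be read in both libraries. Cells of both carry the same deposited cluster names, which the transcripts are taken to have made. A likeness of Tumor_7 between the libraries therefore tests nothing. In the IgG library Mcm3 was at 176 CPM (166 to 187) in Tumor_7, with the other clusters between 13.0 and 62.9 CPM. In the antibody library it was at 167 CPM (156 to 179), with the others between 12.9 and 62.7 CPM. Tumor_7 lay above all 10 other clusters in each library, and the ratio to the pooled others was 4.82 (4.49 to 5.17) and 4.42 (4.08 to 4.80).

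**Figure D5:**
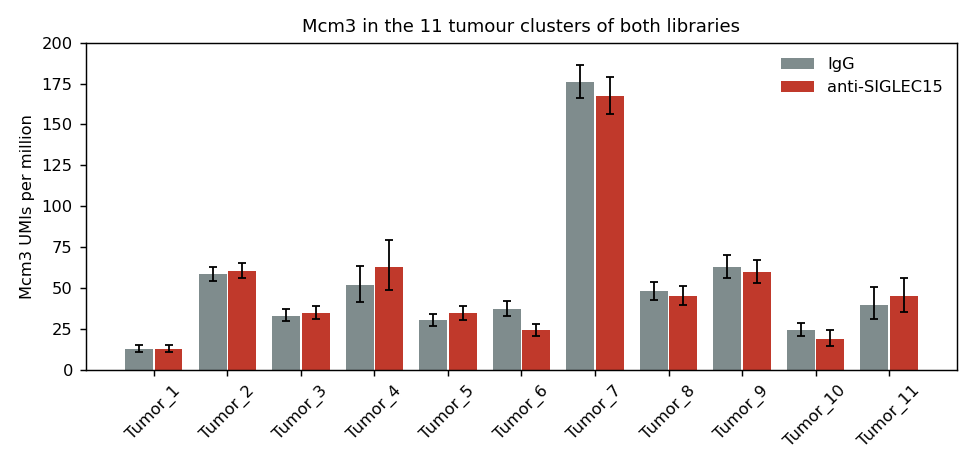
Mcm3 level in CPM (vertical axis, from 0) in each of the 11 tumour clusters, IgG and antibody libraries side by side, with 95% Poisson bars. Tumor_7 stands at 176 and 167 CPM, and no other cluster is above 62.9 CPM.

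Of 40 shared genes past the 20 CPM filter in both libraries, Mcm3 and Ptpn18 were at least 1.5-fold higher in Tumor_7 in both. Gsta3 was past 1.5-fold with IgG, at 1.59 (1.52 to 1.66), and not with the antibody, at 1.17 (1.09 to 1.24). Sdhaf4 lay near the limit, at 1.51 (1.33 to 1.70) with IgG and 1.36 (1.17 to 1.58) with the antibody, and its intervals overlap. Rb1cc1 and Snhg6 were lower in both. The primase subunit Prim2 was at 15.4 against 3.33 CPM in the IgG library and at 14.5 against 3.87 CPM in the antibody library, below the filter in each. Snhg6, a host of small nucleolar RNAs, was at 67.0 against 201 CPM with IgG and 63.9 against 159 CPM with the antibody. For Ly96 the ratio to the other tumour clusters was 1.06 (0.871 to 1.28) with the antibody and 0.69 (0.557 to 0.845) with IgG. The antibody interval does not separate Tumor_7 from the others. Over the 40 genes, the log2 ratios of Tumor_7 to the other tumour clusters had a correlation across genes of 0.953 between libraries. IgG Tumor_7 was most like the antibody Tumor_7, at 0.993, followed by Tumor_2 at 0.976. Since the cluster names are taken to come from these transcripts in both libraries, such correlations describe the cluster and test nothing.

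The antibody and the IgG library were then compared within Tumor_7, over 50 shared genes with at least 50 UMIs in each. Of these, 2 differed by at least 1.5-fold (4%), 1 in each direction, and the median log2 ratio was 0.03. Gsta3, a glutathione transferase of the liver, was at 206 CPM with the antibody and 328 CPM with IgG, a ratio of 0.627 (0.581 to 0.676). In the other tumour clusters the same ratio was 0.855. Ly96, the partner of the receptor Tlr4, was at 24.6 and 15.1 CPM, a ratio of 1.63 (1.24 to 2.15), against 1.06 in the other tumour clusters. Intervals lay above 1 for 6 genes and below 1 for 5. Rdh10, a retinol dehydrogenase, had a ratio of 1.31 (1.07 to 1.61) in Tumor_7 and 1.26 in the other clusters. Mcm3 had a ratio of 0.9503 (0.868 to 1.04). The difference between Tumor_7 and the other clusters in these ratios was not tested.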

How the data were processed

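Per the labels' protocols, libraries were made with the 10x single cell 3′ v2 kit. The submitters' processing notes name Cell Ranger 2.1.1. For the build, the cell filters and the clustering, the method is not given in the sources used here. The authors deposited a cluster name for each cell and a matrix of expression on a natural log scale, ln(1 + 10000 × UMIs / depth of the cell). This form was checked on the values: UMIs came out whole within 0.001 for 100% of them. The antibody matrix held 18685 genes. Of the IgG matrix 105 genes were complete, and its other genes were not analysed here. In the antibody library the depth from these 105 genes equalled the full depth in 5440 of 5482 cells and in all 219 Tumor_7 cells, and 26 IgG cells, none of them tumour cells, had no depth.

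UMIs were summed over cells and scaled to CPM in Python 3.11.15 (scipy 1.17.1, numpy 2.4.6, pandas 2.3.3). CPM have exact Poisson, ratios exact conditional and shares Clopper-Pearson 95% intervals. Genes with at least 20 CPM in the higher group were compared, and a gene counted as higher or lower from 1.5-fold on. Log2 ratios had a prior count of 0.5. Thinned shares are expected values. Doublets were predicted with scrublet in scanpy 1.11.5, which marked 67 of 5482 cells (1.22%). Plots used matplotlib 3.10.9. Steps were tested on simulated data.

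Members, lists and alternatives were chosen with earlier results of these data known. The subunit groups, the histone groups, the motifs and the genes of the closing section were chosen after values were seen. Named genes were the 15 highest and 15 lowest ratios among genes with at least 50 CPM and 30 UMIs, the 10 most abundant, up to 4 of each list with the largest change, those 1.5-fold beyond every other tumour cluster and the shared genes with intervals farthest from 1, leaving out ribosomal, mitochondrial and unnamed models. Other genes named as members of a group were chosen after their values were seen. RefSeq starts lay within 50 bases of a GENCODE M21 start in 88.1% of cases. Alternatives changed the reference clusters, the filter, the scaling, the cells and the thinning depth. Some genes that the naming rule or the groups would name are not reported here.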

Additional observations from a re-analysis of the deposited data

How the results depend on the processing

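The count of higher genes, 625, was 312 with a filter of 50 CPM and 1207 with 5 CPM, since fewer or more genes were compared. The count of lower genes, 341, was 158 and 669 with these filters, and 200 with the median of the other clusters, each weighted alike, as reference. The median log2 ratio of the mitosis list, 0.57, was 2.06 with that reference, 1.22 with 50 CPM, 0.32 as a mean over cells, 0.34 without Tumor_1 and 2.14 without Tumor_2 and Tumor_4. That of the hypoxia list, -1.20, was -0.36 with each cluster weighted alike. That of the Hist genes, 2.14, was 2.84 without Tumor_2 and Tumor_4. Beyond the clusters left out, the cause was not tested. The ratio of shares, 1.05, was 0.814 over all cells. Of 479 recomputed list medians 457 moved by less than their limit, and of 300 log2 ratios of the 30 genes with the highest and lowest ratios 298 were still past 1.5-fold in the same direction. No direction reversed. Without the cell that held most of its UMIs, 11 of 173 list genes called higher were under 1.5-fold. Leaving out Tumor_1, leaving out Tumor_2 and Tumor_4, leaving out predicted doublets and leaving out the cell with the most UMIs of a gene were chosen after seeing the data. Shares of cells with a UMI moved with thinning depth in 15 of 15 cases. Gsta3 moved from 0.627 to 0.577 as a mean over cells. No paired analysis was possible because each group is 1 library.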

Other observations

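A few genes chosen after their values were seen were carried by a minority of Tumor_7 cells. Cx3cr1, a chemokine receptor best known on macrophages, was at 57.9 CPM (51.4 to 65.1) in Tumor_7, above the 11.6 to 39.8 CPM of the other tumour clusters and below the 92.1 CPM of Macrophage_1. Its 283 UMIs lay in 56 of 219 cells (25.6%, 19.9 to 31.9), and 10 cells held 154 of them (54.4%). In other tumour cells the share with a UMI was 12.2%. The 6 macrophage markers summed to 14.5 CPM in Tumor_7, and their part in the Cx3cr1 level was not tested.

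Wnt6, a Wnt ligand, was at 45.8 CPM with a UMI in 70 cells (32.0%), against 13.2% of other tumour cells, and the other clusters ran from 2.40 CPM to 35.6 CPM in Tumor_3. Bex1 was at 92.1 CPM, but 10 cells held 296 of its 450 UMIs (65.8%). Cxcl9 was more uneven. Of its 453 UMIs, 191 (42.2%) lay in 1 cell, and without that cell it was at 54.0 CPM. Of 156 UMIs of the fibroblast marker Dcn, 60 (38.5%) lay in 1 cell.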
